A study of Mus musculus with 12 samples.

Results

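The microRNA machinery was followed in mouse embryonic stem cells (mESCs) through 8 genes: Drosha, Dgcr8, Xpo5, Dicer1 and Tarbp2, which make microRNAs, and Lin28a, Lin28b and Trim71, which are tied to the microRNA let-7 in stem cells. They were chosen by their GENCODE M1 names, as 8 of 34079 genes with exonic values, and comprise 68 of 213131 measured features, that is, 34 transcripts with an exonic and an intronic entry each. Of the exonic values, those of 24 transcripts passed the filter on low values (a mean of at least 20 over the libraries), and 1 transcript, ENSMUST00000134431 of Dgcr8, had no exonic value in any library. The cells were the XY mESC line DTCM23/49, grown on gelatin in medium with serum and leukemia inhibitory factor (LIF), and all of them received 200 µM 4-thiouridine (4sU), a uridine analog that is built into RNA while it is being made. After 15, 30 or 60 min of 4sU, RNA was extracted and sequenced as total RNA, or as labeled RNA, the part that was biotinylated and pulled down on streptavidin beads. Each of these 6 groups held 2 biological replicates, obtained by dividing a culture of 1 line and passaging it 8 times, which gave 6 labeled and 6 total RNA libraries. No library came from cells without 4sU, and no treatment or genotype differed between the groups. The 6 libraries of each kind of RNA thus come from 2 divisions of 1 culture, and the tests treat them as independent. The p-values, and the SDs over 6 libraries, therefore describe the spread between libraries of these 2 divisions at 15, 30 and 60 min. They do not measure the spread between independent cultures or cell lines.

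MicroRNAs are cut from longer transcripts in steps. The Microprocessor, made of the nuclease Drosha and the RNA-binding protein Dgcr8, releases a hairpin in the nucleus, exportin 5 (Xpo5) carries the hairpin to the cytoplasm, and Dicer1 with its partner Tarbp2 cuts it to the mature length. In pluripotent cells the RNA-binding proteins Lin28a and Lin28b block the maturation of let-7, and let-7 in turn represses Lin28a, Lin28b and the ubiquitin ligase Trim71 through sites in their 3′ untranslated regions (UTRs).

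Abundances are in the units of the deposited values, which sum to nearly the same total in every library, from 19988830 to 19992902. Their unit is not given in the sources used here, and they were taken as abundances per length, about 20 times TPM, on which the order of the genes and the percentages of introns to exons below depend. The depth of a single library cannot be read from them, so no counting error was computed. Labeled and total RNA are therefore compared as shares of their own library, and a gene lower in labeled RNA was a smaller share of new RNA than of all RNA. The 2 labeled libraries of replicate 2 at 15 and 60 min stood apart. Introns made up 7.24% and 6.99% of their signal, within the 6.53% to 7.41% of the total RNA libraries, while they made up 14.8%, 9.35%, 10.8% and 13.9% of the other 4 labeled libraries. In some other measures labeled and total RNA did not overlap, which by definition places these 2 libraries with labeled RNA. No conclusion about the 2 libraries is drawn from those measures. In these 2 libraries the exons of Lin28a were at 489.6 and 382, with no total RNA library below 757. Those of Trim71 were at 477 and 349.9, with none below 569.7. The intronic sums of Tarbp2 were at 241 and 224, with none above 91.4. The exons of Dicer1 and Xpo5 in replicate 2 at 15 min, at 178 and 197, lay within the range of total RNA. In replicate 2 at 60 min, at 128 and 126, they lay below it. What lowered the intronic share of these 2 libraries was not tested, and labeled values over 6 libraries include them. The tests on introns were therefore also run without these 2 libraries, while the values and percentages of introns in labeled RNA include them.

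Markers of mESCs were measured in all libraries. All 8 passed the filter, and their mean abundances added up to 22444 in labeled and 21049.7 in total RNA, most of it from Dppa5a, Nanog and Tdgf1. Of these markers, 1 fell in labeled RNA (Pou5f1) and 7 did not pass the test. Fibroblast markers summed to 521 in total RNA, most of it Vim at 479, with Thy1 at 38.6, while Col1a1 was at 3.09 and Col1a2 at 0.192. Vim fell in labeled RNA, Thy1 did not pass, and the part of other cells in the results was not tested. Primitive endoderm markers summed to 11.8 in total RNA and 7.64 in labeled RNA, almost all of it Gata4, with Sox17 listed at 0 in total RNA. Mesoderm markers summed to 16.1 in total and 16.9 in labeled RNA, with Eomes the most abundant. Of the neural markers, Pax6 and Nes summed to 80.2 in total RNA and 94.1 in labeled RNA, and Sox1 was not matched in the table. In RNA from whole cultures, fewer cells of a type and less RNA per cell cannot be told apart.

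To compare genes with one another, the coding transcript with the highest mean among those in the consensus coding sequence (CCDS) set was taken for each gene, as values per length of single transcripts can be set side by side. By this measure, Lin28a was the most abundant in total RNA, at 898 ± 138 (SD, n = 6), followed by Trim71 at 698 ± 95.2. The ranges of these genes overlapped, and both stood above all other members in every library. Drosha came next at 324 ± 29.6, then Dicer1 at 224 ± 31.4, Lin28b at 217 ± 47.3 and Xpo5 at 197 ± 25.2. The ranges of Dicer1, Lin28b and Xpo5 overlapped, so their order is within the spread between libraries. Dgcr8, at 111 ± 9.51, and Tarbp2, at 38.8 ± 9.67, were the lowest and did not overlap each other or Xpo5. The order depends on the choice of transcript. Summed over transcripts, Drosha was the highest in total RNA at 1616 ± 87.6, above Lin28a and Trim71, while Dgcr8 at 446 ± 33.6 and Tarbp2 at 272 ± 43.0 had higher means than Dicer1, Lin28b and Xpo5, which have the same values in both measures. Against 8141 coding genes, each taken by its own such transcript, total RNA abundance placed Lin28a at percentile 94.6, Trim71 at 92.96 and Drosha at 82.8, and placed Dgcr8 at 55.5 and Tarbp2 at 21.6. By single transcripts, in labeled RNA the first 3 places and the last 2 were held by the same genes, and Xpo5 moved from the sixth to the fourth place.

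**Figure D1:**
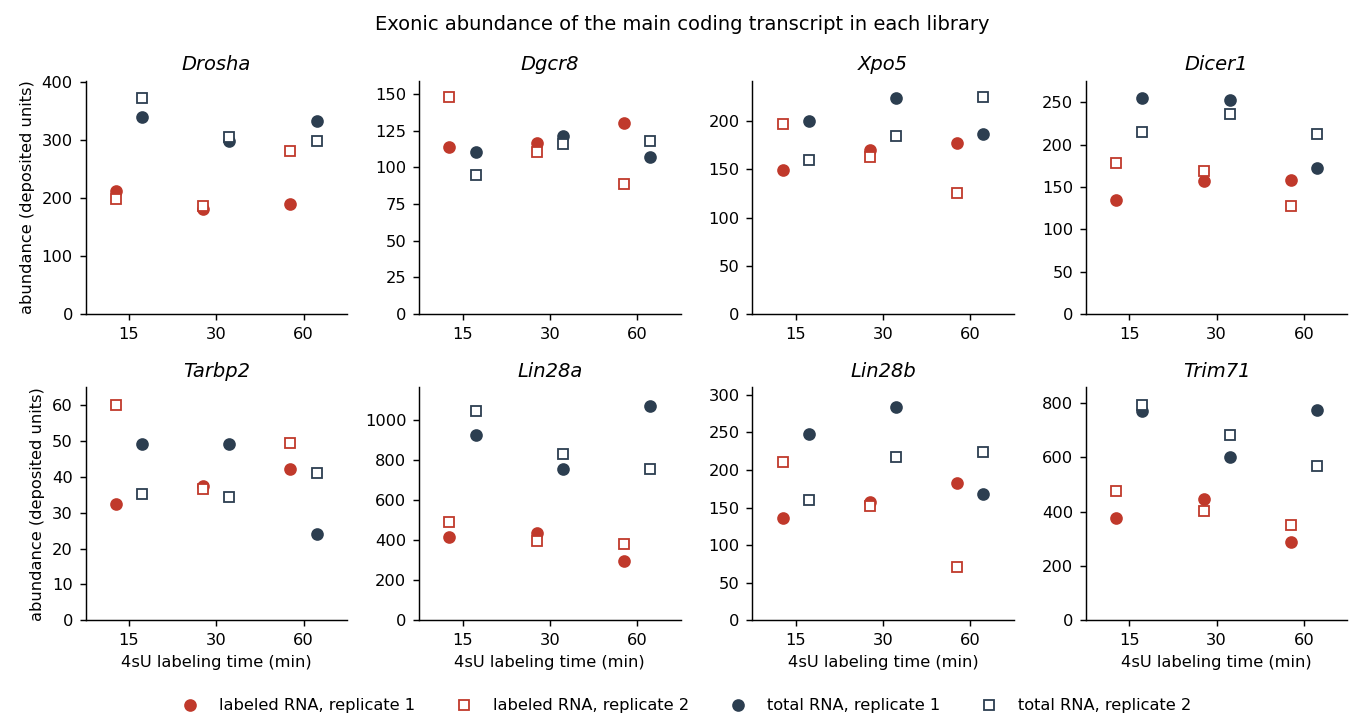
Exonic abundance (y axis, deposited units, starting at 0) of the main coding transcript of each gene in the 12 libraries, by labeling time (x axis, min), with labeled RNA in red, total RNA in dark blue, replicate 1 as filled circles and replicate 2 as open squares. For Drosha, Lin28a and Trim71 all 6 labeled libraries lie below all 6 total RNA libraries, while for Dgcr8 and Tarbp2 the kinds of RNA overlap.

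Labeled and total RNA were first compared to ask which of these mRNAs take a smaller share of new RNA than of all RNA, and exonic values were summed over the transcripts of a gene. Lin28a, Trim71, Drosha and Dicer1 were lower in labeled RNA, and none of the 8 genes was higher. These 4 of 8 genes compare with 16.8% of the 13977 genes tested that passed the threshold in either direction, and 11.6% that passed it as lower and 5.28% as higher in labeled RNA (limma with Benjamini-Hochberg adjustment at 0.05 over all genes tested). The median log2 difference of the 8 genes was -0.54, and that of all genes tested was -0.05. For 3 genes, Drosha, Lin28a and Trim71, every labeled library lay below every total RNA library, which held for 7.28% of the genes tested, and for no member did every labeled library lie above, which held for 2.72%. A further fit paired the labeled and the total library of the same labeling time and replicate number, called the replicate block. With it 1270 genes (9.09%, with 5.83% as lower) passed in place of 2353, among them 3 of the 8. With all libraries of replicate 1 or all of replicate 2 left out, which leaves 6 libraries, none of the 8 genes passed, and 0 and 5 of all genes did. Over these settings and those without 1 library, the log2 difference lay between -1.27 and -1.05 for Lin28a, -0.96 and -0.73 for Trim71, -0.64 and -0.57 for Drosha, and -0.58 and -0.48 for Dicer1.

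**Figure D2:**
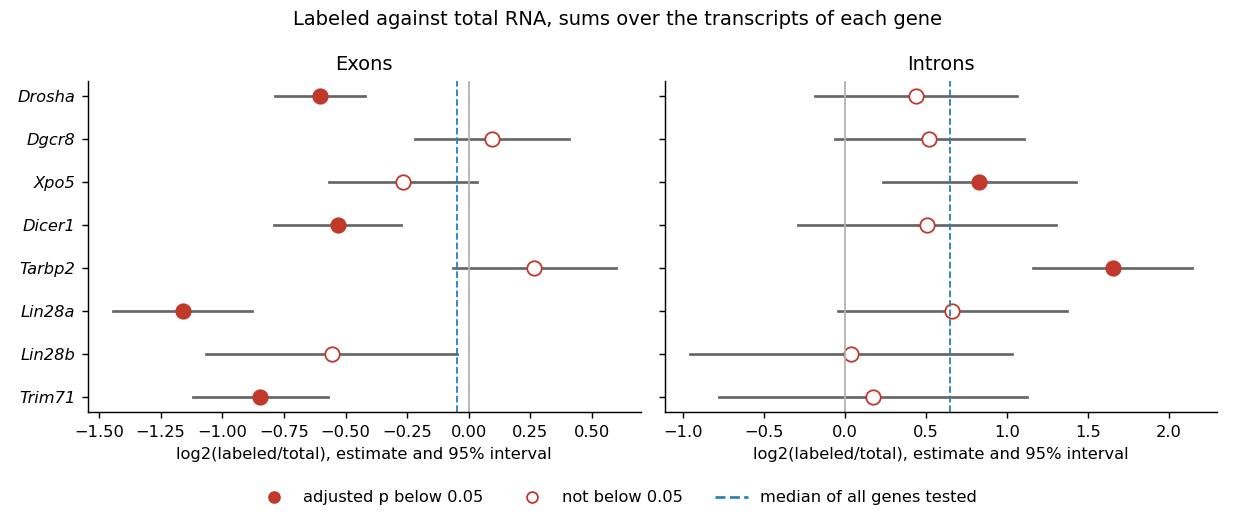
Log2 difference between labeled and total RNA (x axis, with its 95% interval from limma) for the exons (left) and introns (right) of the 8 genes, summed over transcripts, where filled points passed an adjusted p of 0.05 and the dashed line is the median of all genes tested. Exonic differences run from -1.16 for Lin28a to 0.27 for Tarbp2, and among introns Tarbp2 stands highest at 1.65, against a median of 0.65.

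Drosha (NCBIM37 build, ENSMUSG00000022191, chromosome 15, 12754570 to 12865045, plus strand) encodes the nuclease of the Microprocessor. Its main coding transcript, ENSMUST00000090292, has 35 exons and was at 212 and 198 at 15 min, 180.0 and 187 at 30 min, and 189 and 279.9 at 60 min in the labeled libraries of replicates 1 and 2. In total RNA it was at 340.2 and 373 at 15 min, 298 and 305 at 30 min, and 332 and 298 at 60 min. All labeled libraries were lower than all total RNA libraries, and the highest labeled value came from replicate 2 at 60 min, 1 of the 2 libraries with a low intronic share. Summed over its 8 transcripts, Drosha was 1066 ± 84.3 in labeled and 1616 ± 87.6 in total RNA (SD, n = 6 each), a log2 difference of -0.60 with a standard error of 0.08 (limma adjusted p = 0.00145). All 8 transcripts were lower in labeled RNA, and 5 of them passed the test among transcripts, where 17.3% of 45537 did, 12% as lower and 5.28% as higher. Labeled libraries all below total RNA libraries made up 7.61% of transcripts. The 3 that did not pass, ENSMUST00000141706, ENSMUST00000147647 and ENSMUST00000156594, are short noncoding transcripts of the 5′ end, with log2 differences of -0.61, -0.70 and -0.61, and their labeled and total RNA values overlapped. With the replicate block 3 of the 5 passed, where 9.82% of all transcripts did, 6.12% as lower. ENSMUST00000150211 (limma adjusted p = 0.0512) and ENSMUST00000141010 (limma adjusted p = 0.0855) did not. The transcripts of Drosha are not independent, as they share sequence. The ratio of ENSMUST00000169061 to ENSMUST00000090292, both of 35 exons, stayed between 0.753 and 0.920 in the 12 libraries.

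Dgcr8 (ENSMUSG00000022718, chromosome 16, 18254041 to 18289342, minus strand) encodes the subunit that binds the hairpin. Its main transcript ENSMUST00000009321 ranged from 88.6 to 148 with a median of 115 in labeled RNA, and from 94.8 to 121 with a median of 113 in total RNA. The lowest and the highest of the 12 values both came from labeled libraries of replicate 2, at 60 and 15 min, the libraries with a low intronic share. Summed over transcripts, Dgcr8 was 483 ± 93.8 in labeled and 446 ± 33.6 in total RNA (SD, n = 6 each), and the log2 difference was 0.09, with a 95% interval of -0.22 to 0.41 (limma adjusted p = 0.685). A difference of Drosha's size, -0.60, lies outside this interval, although a difference between the genes themselves was not tested. None of the 6 transcripts of Dgcr8 past the filter passed the test. Trmt2a, a coding gene on the other strand, shares 825 exonic bases with Dgcr8, and reads from them cannot be assigned without strand.

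The Dgcr8 mRNA carries a hairpin of its own, miR-1306, and the Microprocessor is known to cut the Dgcr8 mRNA. The RefSeq hairpin of 79 bases was found whole in ENSMUST00000009321, at bases 524 to 602 of the mRNA, in exon 2 of 14 and inside the coding sequence, which runs from base 425 to 2746 (NCBIM37, chromosome 16, 18284332 to 18284410, minus strand). Its mature arms are shown because they are copied from the coding exon measured here, with the seed (bases 2 to 8) in capitals, as RefSeq gives them, with positions on GRCm38.
miR-1306-5p, chr16:18284288-18284310, minus strand: cACCACCUccccugcaaacgucc
miR-1306-3p, chr16:18284248-18284268, minus strand: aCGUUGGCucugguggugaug
The exonic values cover the whole mRNA and do not separate cut from uncut molecules.

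Xpo5 (ENSMUSG00000067150, chromosome 17, 46339804 to 46379248, plus strand) encodes the export receptor of the hairpins and has 1 transcript, ENSMUST00000087031. It ranged from 126 to 197 with a median of 167 in labeled RNA, and from 159.5 to 225 with a median of 193 in total RNA. Of the labeled libraries, 2 lay below the lowest total RNA library, and the others overlapped with it. The log2 difference was -0.27 (95% interval -0.57 to 0.03, limma adjusted p = 0.203), which did not pass the threshold.

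Dicer1 (ENSMUSG00000041415, chromosome 12, 105925952 to 105990162, minus strand) encodes the cytoplasmic nuclease. Of 4 transcripts in GENCODE M1, 1 was in the table, ENSMUST00000041987, with an mRNA of 9851 bases in 27 exons. It ranged from 128 to 178 with a median of 158 in labeled RNA, and from 172 to 256 with a median of 225 in total RNA. In 5 of 6 labeled libraries it was below the lowest total RNA library, replicate 1 at 60 min. The exception was replicate 2 at 15 min, a library with a low intronic share. The log2 difference was -0.53, with a standard error of 0.12 (limma adjusted p = 0.0117). With the replicate block, which pairs labeled and total libraries, it no longer passed (limma adjusted p = 0.0512). Without the 2 libraries it did, with a log2 difference of -0.55 (limma adjusted p = 0.0136).

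Tarbp2 (ENSMUSG00000023051, chromosome 15, 102348623 to 102354107, plus strand) encodes the double-stranded RNA-binding partner of Dicer1 and was measured through 14 transcripts, 5 of them past the filter. The coding transcript ENSMUST00000023813 ranged from 32.4 to 59.98 with a median of 39.8 in labeled RNA, and from 23.9 to 49.05 with a median of 38.1 in total RNA. The kinds of RNA overlapped, and summed over transcripts the log2 difference was 0.27 (95% interval -0.06 to 0.60, limma adjusted p = 0.246). A transcript annotated as a retained intron, ENSMUST00000154451, was higher in labeled RNA. It was at 34.2 and 51.3 at 15 min, 48.3 and 37.1 at 30 min, and 27.5 and 71.5 at 60 min in the labeled libraries of replicates 1 and 2, and at 13.8 and 19.3 at 15 min, 12.8 and 14.7 at 30 min, and 19.3 and 17.6 at 60 min in the total RNA libraries. Every labeled library was above every total RNA library, with the highest value in replicate 2 at 60 min. The log2 difference was 1.36, with a standard error of 0.24 (limma adjusted p = 0.004). Groups separated in this direction made up 2.62% of the transcripts tested. Labeled libraries averaged 45.0 and those of total RNA 16.3, so it passed the filter of 20 only through the group where it is high. Among filtered transcripts it therefore had to differ, and no conclusion is drawn from that test or from the share of 2.62%. The log2 difference of a transcript does not depend on the filter, and without the filter only its test changed (limma adjusted p = 0.00687).

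Lin28a (ENSMUSG00000050966, chromosome 4, 133559245 to 133574756, minus strand) has 1 transcript, ENSMUST00000051674, of 4 exons. It was at 417 and 489.6 at 15 min, 434 and 394 at 30 min, and 294 and 382 at 60 min in the labeled libraries of replicates 1 and 2. In total RNA it was at 926 and 1044 at 15 min, 758 and 832 at 30 min, and 1068 and 757 at 60 min. The highest labeled library was well below the lowest total RNA library at every labeling time. Lin28a was 402 ± 64.8 in labeled and 898 ± 138 in total RNA (SD, n = 6 each), 2.23-fold lower in labeled RNA on the scale of log2(value + 1), with a log2 difference of -1.16 and a standard error of 0.13 (limma adjusted p = 0.000685). Among the 8141 coding genes, its ratio of labeled to total RNA, 0.448, lay at percentile 0.135, where the median ratio was 0.908. A noncoding gene on the other strand, Gm13061, shares 103 exonic bases with Lin28a, and reads from them cannot be told apart, as the library kit is not stated to keep the strand.

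Lin28b (ENSMUSG00000063804, chromosome 10, 45096426 to 45206201, minus strand) was measured through 1 of its 4 transcripts, ENSMUST00000079390. It ranged from 71.1 to 211 with a median of 155 in labeled RNA, and from 159.8 to 284 with a median of 220.1 in total RNA. The kinds of RNA overlapped, with the lowest of all values in labeled RNA of replicate 2 at 60 min. The log2 difference was -0.56, with a standard error of 0.23 (limma adjusted p = 0.122), about the size of Dicer1's with a larger error. It passed the threshold when log values were centred on the median of each library (limma adjusted p = 0.0499) and without labeled replicate 1 at 60 min (limma adjusted p = 0.0481). Without the 2 libraries of low intronic share the log2 difference was -0.47 (limma adjusted p = 0.0845).

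Trim71 (ENSMUSG00000079259, chromosome 9, 114420393 to 114473487, minus strand) has 1 transcript, ENSMUST00000111816, of 4 exons. It was at 376 and 477 at 15 min, 446 and 401 at 30 min, and 289 and 349.9 at 60 min in the labeled libraries of replicates 1 and 2, and at 769.7 and 791 at 15 min, 603 and 680.4 at 30 min, and 773 and 569.7 at 60 min in the total RNA libraries. All labeled libraries were below all total RNA libraries, and as in Lin28a the lowest labeled value was that of replicate 1 at 60 min. Trim71 was 389.7 ± 67.5 in labeled and 698 ± 95.2 in total RNA (SD, n = 6 each), with a log2 difference of -0.85 and a standard error of 0.12 (limma adjusted p = 0.00188). Its ratio of labeled to total RNA, 0.559, lay at percentile 1.45 of coding genes.

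Lin28a, Lin28b and Trim71 are known as let-7 targets, so the let-7 family and its seed matches in the members are shown here. The RefSeq table held 9 mature microRNAs with the let-7 seed, bases 2 to 8, which is in capitals in the 3 printed. Positions are on GRCm38, and let-7a-5p is given at its Mirlet7a-1 copy. The seed of miR-125, another microRNA known to repress Lin28a, was shared by miR-125a-5p and miR-125b-5p.
let-7a-5p, chr13:48538239-48538260, minus strand: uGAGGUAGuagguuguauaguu
let-7g-5p, chr9:106178846-106178867, plus strand: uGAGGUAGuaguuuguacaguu
miR-98-5p, chrX:151913229-151913250, plus strand: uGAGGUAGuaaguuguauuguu
miR-125b-5p, chr9:41581940-41581961, plus strand: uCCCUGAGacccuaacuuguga
The 7 bases that pair with these seeds, CTACCTC for let-7 and CTCAGGG for miR-125, were searched in the 3′ UTR of each main coding transcript, on the mRNA strand only. CTACCTC was found in 4 of the 8 genes: 2 times in Lin28a, 4 times in Lin28b, 2 times in Trim71 and once in Tarbp2. Each site is shown within 30 bases of the mRNA, with the seed match in capitals and NCBIM37 positions of the capitals.
Lin28a let-7 match 1, chr4:133561105-133561111, minus strand: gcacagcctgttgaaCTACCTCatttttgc
Lin28a let-7 match 2, chr4:133560467-133560473, minus strand: gagatcgccacaaacCTACCTCactgtgtt
Lin28b let-7 match 1, chr10:45100829-45100835, minus strand: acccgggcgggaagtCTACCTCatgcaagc
Lin28b let-7 match 2, chr10:45098455-45098461, minus strand: tatacttgttagtaaCTACCTCtgagtttg
Lin28b let-7 match 3, chr10:45098283-45098289, minus strand: gtttacagcacatggCTACCTCccagctac
Lin28b let-7 match 4, chr10:45096867-45096873, minus strand: aaatgatggcaccgaCTACCTCttcaatca
Trim71 let-7 match 1, chr9:114421591-114421597, minus strand: aacattgcctaagtcCTACCTCagcttaaa
Trim71 let-7 match 2, chr9:114421495-114421501, minus strand: agtgataatttctatCTACCTCaactcttt
Tarbp2 let-7 match 1, chr15:102353875-102353881, plus strand: ccagaggtgccatctCTACCTCtgacacag
CTACCTC was present in 8.81% of the longest 3′ UTRs of 19915 genes. Longer 3′ UTRs hold more matches, and among those of a length similar to the member's, it was present in 15.9% for Lin28a (2775 bases), 25.4% for Lin28b (4445 bases), 11.0% for Trim71 (1370 bases) and 2.59% for Tarbp2 (334 bases). At least as many matches as in the member were held by 2.41% of them for Lin28a, 0.282% for Lin28b, 0.83% for Trim71 and 2.59% for Tarbp2. CTCAGGG was found once in Lin28a, Lin28b, Trim71 and Dicer1, and in 12.6% of all 3′ UTRs. Between 15.6% and 33.2% of 3′ UTRs of similar length held it for these 4 genes. In Lin28a and Trim71 the miR-125 match lay upstream of the first let-7 match, at base 797 against base 909 of the 3′ UTR in Lin28a and at base 79 against base 166 in Trim71, and both miR-125 matches are shown. In Lin28b it lay downstream, at base 2260 against base 36.
Lin28a miR-125 match 1, chr4:133561217-133561223, minus strand: aggtacatgagcaatCTCAGGGataataag
Trim71 miR-125 match 1, chr9:114421678-114421684, minus strand: caaagaagaaatcgtCTCAGGGatatttct
The 3′ UTRs of Drosha, with 121 bases, and Xpo5, with 28 bases, are short in this annotation. A match is a description of the sequence, and binding was not measured.

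**Figure D3:**
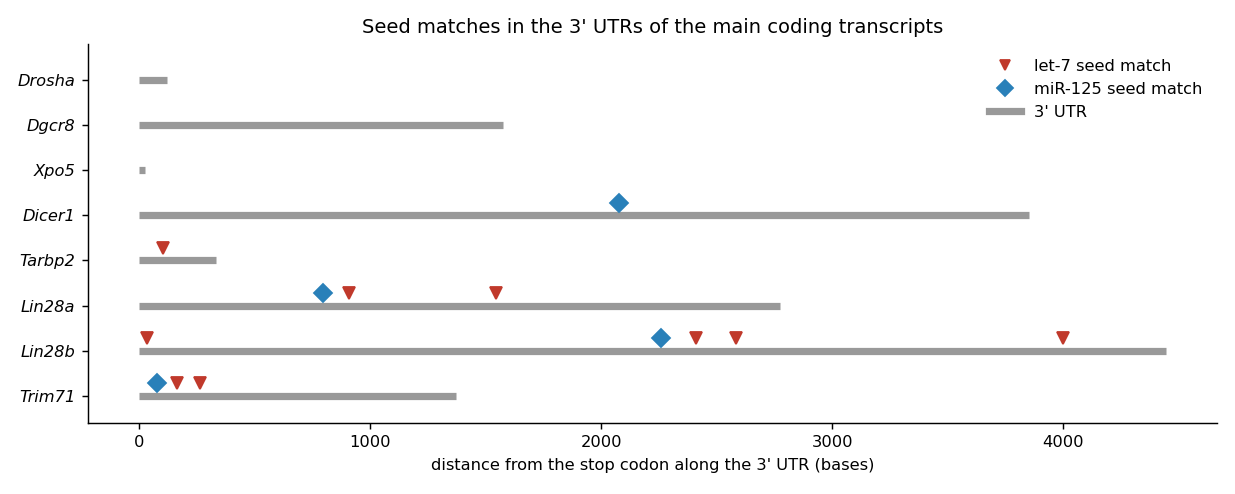
Positions of seed matches of let-7 (red triangles) and miR-125 (blue diamonds) along the 3′ UTRs (grey bars, x axis in bases from the stop codon) of the main coding transcript of each gene. Lin28b holds 4 let-7 matches, Lin28a and Trim71 hold 2 each, and Tarbp2 holds 1.

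Introns were compared next, as they mark RNA that is not yet spliced, which new RNA holds more of. Across 14780 genes the median log2 difference between labeled and total RNA was 0.65, and 30.4% passed the threshold, 30.2% as higher and 0.21% as lower in labeled RNA. Of the 8 genes 2 passed, Tarbp2 and Xpo5, both higher. The remaining genes had log2 differences from 0.04 for Lin28b to 0.66 for Lin28a. The median of the 8 was 0.51. Without the 2 labeled libraries of low intronic share, 7 of the 8 genes passed, all but Lin28b, where 89.2% of all genes did. With log values centred on the median of each library, which sets each gene against the others, none of the 8 passed where 12.3% of all genes did, Tarbp2 had the largest log2 difference of 0.95 (limma adjusted p = 0.0673), and Drosha, Dgcr8, Dicer1, Lin28a, Lin28b and Trim71 were below 0.

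**Figure D4:**
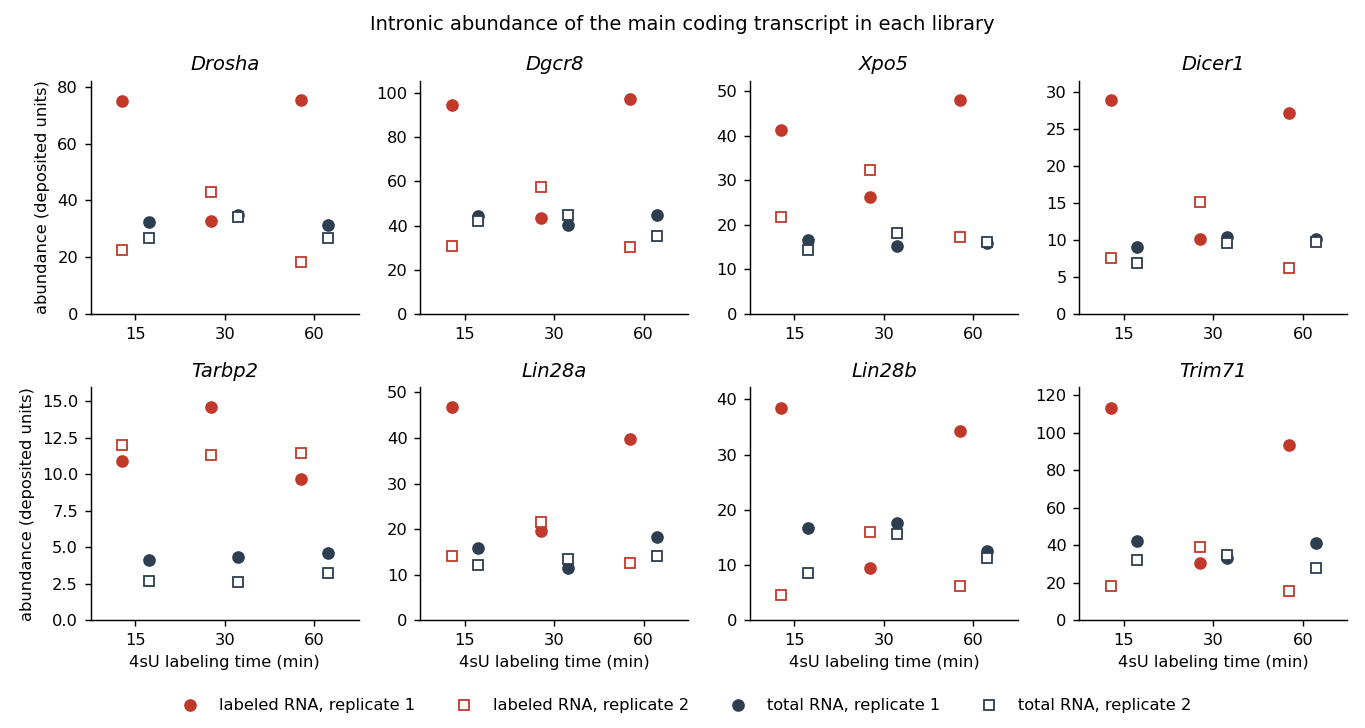
Intronic abundance (y axis, deposited units, starting at 0) of the main coding transcript of each gene in the 12 libraries, by labeling time (x axis, min), with colors and symbols for kind of RNA and replicate. In all genes but Tarbp2 the labeled libraries of replicate 1 at 15 and 60 min (filled red circles) are the 2 highest, while in Tarbp2 all 6 labeled libraries lie between 9.68 and 14.6, above all total RNA libraries.

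Tarbp2 introns rose in every labeled library. Those of its coding transcript were at 10.9 and 12.04 at 15 min, 14.6 and 11.3 at 30 min, and 9.68 and 11.5 at 60 min in the labeled libraries of replicates 1 and 2, and at 4.15 and 2.67 at 15 min, 4.36 and 2.66 at 30 min, and 4.59 and 3.25 at 60 min in the total RNA libraries. The groups did not overlap, and the libraries of low intronic share were as high as the others. Summed over transcripts the introns of Tarbp2 were 229 ± 37.5 in labeled and 72.2 ± 12.4 in total RNA (SD, n = 6 each), a log2 difference of 1.65 with a standard error of 0.23 (limma adjusted p = 0.00124), and 1.60 without the 2 libraries (limma adjusted p = 0.00019). Labeled libraries lay above all total RNA libraries in this way for 16.1% of genes. In this short gene 74.7% of the intronic bases of its coding transcript are exonic in another of its transcripts in GENCODE M1, so its intronic values include sequence that other isoforms retain.

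The introns of the other genes varied widely among the labeled libraries. For Xpo5 they were at 41.2 and 21.9 at 15 min, 26.4 and 32.2 at 30 min, and 48.1 and 17.2 at 60 min in the labeled libraries of replicates 1 and 2, and ranged from 14.4 to 18.2 with a median of 16.04 in total RNA. In 5 of 6 labeled libraries they were above every total RNA library, and the log2 difference was 0.83, with a standard error of 0.28 (limma adjusted p = 0.0367). Without a filter on low values it no longer passed (limma adjusted p = 0.0508), and without the 2 libraries of low intronic share the log2 difference was 1.15 (limma adjusted p = 0.000584). For Trim71 the introns were at 113 and 18.5 at 15 min, 30.6 and 39.2 at 30 min, and 93.8 and 15.7 at 60 min in labeled libraries of replicates 1 and 2, and ranged from 27.8 to 42.4 with a median of 34.2 in total RNA. Labeled replicate 1 at 15 and 60 min was more than any total RNA library, and replicate 2 at the same times was less than any of them. Lin28b showed the same order, from 38.5 in replicate 1 to 4.67 in replicate 2 at 15 min. Without replicate 1, which keeps the libraries of low intronic share, the intronic log2 differences of Lin28b and Trim71 were -0.50 and -0.47, and without replicate 2 they were 0.57 and 0.81.

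Intronic values of the short 5′ transcripts exceeded those of the full-length ones. In total RNA the introns of the 5′ Drosha transcripts ENSMUST00000141706, ENSMUST00000147647 and ENSMUST00000156594 averaged 74.2, 69.8 and 86.2, and those of the full-length ENSMUST00000090292 averaged 31.1. For Dgcr8, the single intron of ENSMUST00000134431, 1490 bases at the 5′ end of the gene, averaged 201 ± 50.4 in labeled and 119.7 ± 12.97 in total RNA (SD, n = 6 each), with 178 and 135 in the labeled libraries of low intronic share. This was higher than the exons of any Dgcr8 transcript in total RNA, although the exons of ENSMUST00000134431 itself were listed at no value. It holds no base that is exonic in another transcript of Dgcr8. These short transcripts made up most of the tested intronic sum of Drosha, 66.3% in total RNA for the 3 of them, and the single intron made up 40.5% of that of Dgcr8.

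The ratio of intronic to exonic abundance sets unspliced against spliced RNA of the same gene. In total RNA the introns of Lin28a stood at 1.59% of its exons per length, at percentile 6.33 among 7977 coding genes with introns, where the median was 10.7%. Dicer1 stood at 4.16%, Trim71 at 5.07% and Lin28b at 6.33%, and Xpo5, Tarbp2 and Drosha lay between 8.19% and 9.58%. Dgcr8 was set apart at 37.7%, percentile 91.4, and 9.56% of the intronic bases of its main transcript are exonic in other Dgcr8 transcripts.

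Lin28a, Tarbp2, Xpo5 and Drosha had a higher ratio of introns to exons in labeled RNA, 4 of 8 genes where 25.7% of 10228 genes passed (25.5% as higher and 0.205% as lower), with a median log2 difference over all genes of 0.70. For Lin28a the introns were from 2.90% to 13.5% of the exons in labeled libraries, and from 1.16% to 1.86% in total RNA. Every labeled library was higher than every total RNA library, and the log2 difference was 1.82, with a standard error of 0.41 (limma adjusted p = 0.00971). Tarbp2 followed at 1.39 (limma adjusted p = 0.00693), then Xpo5 at 1.10 (limma adjusted p = 0.0247) and Drosha at 1.04 (limma adjusted p = 0.0352). Xpo5 and Tarbp2 also had every labeled library above every total RNA library in this ratio, and Drosha did not. Such a separation held for 10.7% of the genes tested. Without the 2 libraries of low intronic share all 8 genes passed, where 82.7% of all genes did, with log2 differences of 2.35 for Lin28a, 1.49 for Tarbp2, 1.41 for Xpo5 and 1.43 for Drosha. With the replicate block Dicer1 passed too (limma adjusted p = 0.0382), where 33.9% of all genes did. Relative to all genes, with values centred on the median of each library, Lin28a alone of the 8 passed, with a log2 difference of 1.09 (limma adjusted p = 0.00926), where 10% of all genes did, 5.49% as higher. With this centring the introns of Lin28a were at -0.039 and its exons at -1.14, so this call is not independent of its lower exons above.

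Labeling time was then examined, as longer labeling lets new RNA approach all RNA. No gene of the 13977 tested passed between 60 and 15 min in labeled RNA, in total RNA or in the change of their difference (limma, 0% each, with unadjusted p under 0.05 for 178, 108 and 162 genes), with 2 libraries in each group. In labeled RNA Lin28a was lower at 60 than at 15 min by a log2 value of 0.43 and Trim71 by 0.41, with standard errors of 0.23 and 0.22 (limma adjusted p = 1 for both), and the values at these times did not overlap in either gene, which held in this direction for 7.85% of the genes tested. The log2 differences of the other 6 genes lay between -0.57 for Lin28b and 0.05 for Drosha. The labeled values of Lin28b at 60 min, 183 in replicate 1 and 71.1 in replicate 2, differed more than its means at 15 and 60 min.

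Rates of the same single transcript of each gene were computed per labeling time as plain ratios, without the kinetic model of the study, as a description without a test. Synthesis is labeled exonic abundance per hour, processing is synthesis per total intronic abundance, and degradation is synthesis per total exonic abundance less intronic abundance. Since labeled libraries are scaled to the same total at each time, rates fall with labeling time by construction, and they are best read against the other coding genes at the same time. Synthesis of 7 of the 8 genes was above the median of 8141 genes at each labeling time, with Lin28a and Trim71 the highest. Averaged over the times, Lin28a stood at 993 units per hour (percentile 89.2), Trim71 at 957 (percentile 88.8), Dgcr8 at 287 (percentile 61.7) and Tarbp2 at 101 (percentile 25.8), where the median was 201.

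Processing, by this ratio, was highest for Lin28a and lowest for Dgcr8. It divides by total intronic abundance and is not independent of the percentages of introns to exons above. Lin28a had 72.1 per hour on average, at percentile 90.2 among 7718 genes with a processing rate, with 65.6 in replicate 1 and 82.2 in replicate 2. Dgcr8 had 6.74 per hour, at percentile 9.73, with 6.32 in replicate 1 and 7.20 in replicate 2. Dgcr8 was the lower of the genes in both replicates. Dicer1 was at percentile 78.8, Drosha was at percentile 38.6, and Tarbp2, Lin28b, Trim71 and Xpo5 lay between 60.9 and 67.3. The replicates differed most for Tarbp2, at 19.2 and 44.2 per hour, and Lin28b, at 21.7 and 41.5 per hour in replicates 1 and 2.

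Averaged over the times, degradation was slowest for Lin28a and fastest for Dgcr8. This rate holds the ratio of labeled to total exonic abundance and is not independent of the comparison made above. Lin28a had 1.87, 1.06 and 0.377 per hour at 15, 30 and 60 min, below percentile 1 of 7841 genes at each time. Trim71 had 2.29, 1.40 and 0.502 per hour, with percentiles from 0.610 to 9.91. Drosha and Dicer1 lay at percentiles 4.68 and 7.18 of the average rate, Lin28b at 17.9 and Xpo5 at 40.1. Dgcr8 had 8.83, 2.99 and 1.52 per hour, the highest of the 8 genes at 15 and 30 min and in the average, and second to Tarbp2 at 1.60 per hour at 60 min, with percentiles from 83.5 to 93.4. As the intronic abundance of Dgcr8 is subtracted in this rate, its high intronic value raises it. Tarbp2 varied the most with labeling time, from percentile 44.1 at 30 min to 86.3 at 60 min.

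**Figure D5:**
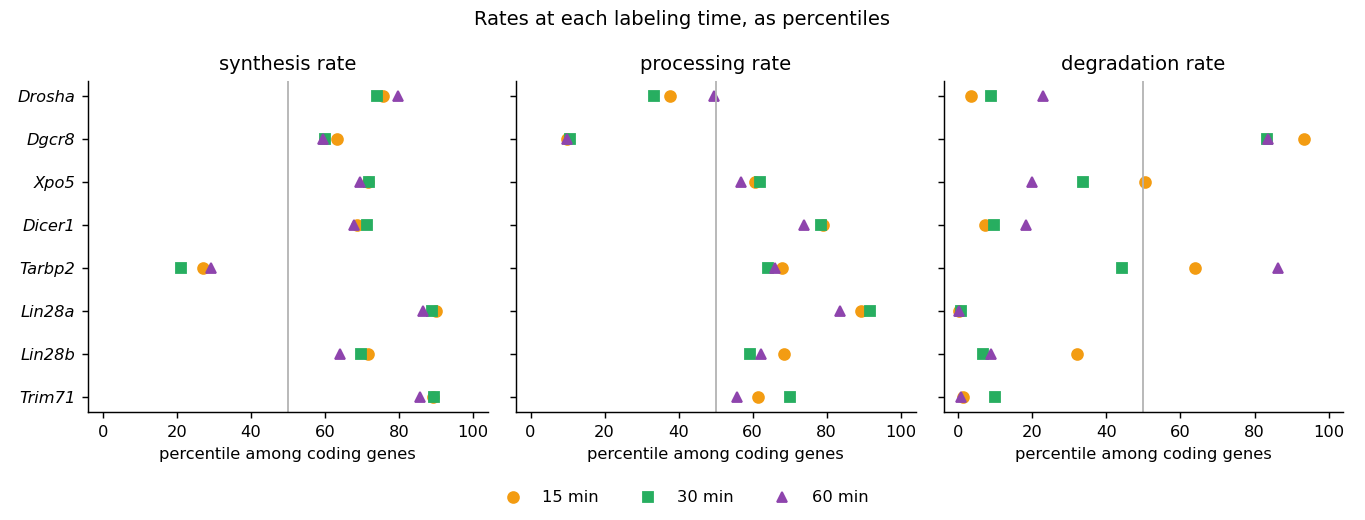
Percentile of each gene's synthesis, processing and degradation rate among coding genes (x axis, with a line at the median) at 15 min (orange circles), 30 min (green squares) and 60 min (purple triangles). Lin28a has the lowest degradation percentile and the highest processing percentile at every time, and Dgcr8 has the lowest processing percentile.

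Other genes of the microRNA pathway were taken as a list of 24, of which 23 were tested. In labeled RNA 8 fell, 1 rose and 14 did not pass, with a median log2 difference of -0.32 where that of all genes was -0.05 and 11.6% of genes passed as lower and 5.28% as higher. The largest decreases were of Ddx6, a helicase of translational repression and mRNA decay, at 142 ± 29.5 in labeled and 297 ± 30.1 in total RNA (SD, n = 6 each, log2 difference -1.08, limma adjusted p = 0.000894), and of the helicase Mov10, at 578 ± 85.3 in labeled and 1074 ± 118 in total RNA (log2 difference -0.90, limma adjusted p = 0.00131). Ago2, the argonaute that cuts target RNA, was at 214 ± 22.01 in labeled and 369 ± 46.2 in total RNA (log2 difference -0.78, limma adjusted p = 0.00147). For these 3 genes every labeled library was below every total RNA library. Khsrp, an RNA-binding protein, was at 135 ± 30.1 in labeled and 219 ± 49.2 in total RNA with overlap (log2 difference -0.70, limma adjusted p = 0.0252), and its call was lost with the replicate block (limma adjusted p = 0.0658) and with centred values (limma adjusted p = 0.0619). Ddx17, with a log2 difference of -0.47 (limma adjusted p = 0.0482), lost its call without a filter on low values (limma adjusted p = 0.0696). Gemin4 rose, at 196 ± 32.8 in labeled and 126 ± 12.4 in total RNA (log2 difference 0.62, limma adjusted p = 0.00859), but its most abundant transcript alone gave 0.06 (limma adjusted p = 0.828). Among the genes that did not pass, named here after their values were seen, Ago1 and Ago3 had log2 differences of -0.20 and -0.07, Tnrc6a of 0.03 and Prkra, like Tarbp2 a partner of Dicer1, of 0.11.

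Of 12 genes known as let-7 targets, 11 were tested, 5 fell in labeled RNA, none rose and 6 did not pass, where 11.6% of all genes tested passed as lower and 5.28% as higher. The median log2 difference was -0.29, and that of all genes was -0.05. Igf2bp1, an RNA-binding protein of fetal tissues, was at 993 ± 151 in labeled and 1606 ± 129 in total RNA (SD, n = 6 each, log2 difference -0.70, limma adjusted p = 0.00127). Its relatives Igf2bp3 and Igf2bp2 had log2 differences of -0.65 (limma adjusted p = 0.0199) and -0.56 (limma adjusted p = 0.00363). Igf2bp1 and Igf2bp2 had every labeled library below every total RNA library. The call of Igf2bp3 was lost with the replicate block (limma adjusted p = 0.0637). The transcription factors Myc and Mycn, also named after their values were seen, had log2 differences of 0.16 and 0.38 and did not pass.

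The precursors of the microRNAs themselves were hardly measured. Of 20 host or precursor genes, 14 were listed at 0 in all libraries, among them 7 of 8 let-7 genes, and the eighth, Mirlet7d, had a value in 1 of 12 libraries. Mir17hg, the host of the miR-17 cluster, was at 213 ± 69.6 in labeled and 144 ± 59.4 in total RNA (SD, n = 6 each, log2 difference 0.58, limma adjusted p = 0.163). Mir294, of the cluster expressed in mESCs, had values in 4 of 6 labeled and 2 of 6 total RNA libraries, Mir292 in 3 of 6 labeled and no total RNA libraries, and Mir293 in 2 of 6 of each. No fold is given for these 3, as the libraries listed at 0 would set it. None of the 4 tested passed. Mature microRNAs were not measured.

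Genes that varied most like each member over the 12 libraries were found by Pearson's correlation of log2(value + 1) among 13977 genes, as a description. The closest to Lin28a was Trim71, with r = 0.985, and Lin28a was in turn the closest to Trim71. Next came Tpm3-rs7 for Lin28a (r = 0.985) and Gatsl3 for Trim71 (r = 0.975). Drosha was closest to Dnmt1 (r = 0.989) and Kif2a (r = 0.981), Dicer1 to Uso1 (r = 0.973) and Nedd4 (r = 0.972), and Lin28b to Eif1a (r = 0.983) and Dirc2 (r = 0.981). Xpo5 was closest to Riok2 (r = 0.977) and Gm4462 (r = 0.973), Dgcr8 to Gm2381 (r = 0.957) and Gm17067 (r = 0.956), and Tarbp2 to Znfx1 (r = 0.907) and Tex264 (r = 0.904). All points share the same 12 libraries and the contrast of labeled and total RNA, and each of these genes was picked for its correlation.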

How the data were processed

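The 12 mESC libraries were prepared with the Ovation RNA-Seq system and sequenced on an Illumina HiSeq instrument. Per the study's methods and the submitters' processing notes, the authors removed ribosomal reads, aligned with STAR 2.5.0 and quantified exonic and intronic sequences with RSEM; the build named is mm10. The deposited values are a score of unstated unit with 1 total over exons and introns, taken here as abundances per length, with missing entries set to 0 here (smallest value 1.01). The depth of each library cannot be read from them. The study's rates, modeled with INSPEcT, were not used here. Transcripts were assigned with GENCODE M1 (NCBIM37), which held 83847 of 121429 exonic features.

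Values were tested as log2(value + 1) with limma 3.58.1 in R 4.3.3 over the whole table, with a mean-variance trend, labeling time as covariate and Benjamini-Hochberg adjustment at 0.05, for features with a mean of at least 20 (exons) or 5 (introns). Fold changes on this scale understate those of low genes. Intervals use limma's t quantiles. The fit was tested on simulated data. Summaries and plots used Python 3.11.15, pandas 2.3.3 and matplotlib 3.10.9. Named genes were the 8 members, the 4 genes of each list with the largest changes past the threshold in each direction, and the 2 most correlated genes of each member. Ddx17 is named for a call that depends on the filter. The values of 1 gene of the lists are not reported here. Members and lists were chosen with earlier results of these data known. Replicate numbers mark the divisions of 1 culture. Departures from the group means were compared between the labeled and the total library of 1 number. They correlated at -0.0695, 0.0480 and -0.188 at 15, 30 and 60 min. The block, which pairs these libraries within a labeling time, is therefore an alternative. Others were pseudocounts, filters, centring, the trend, 1 transcript per gene, single labeling times and leaving out libraries.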

Additional observations from a re-analysis of the deposited data

Results flagged for a closer look

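Of 32 sets of 6 libraries examined (exonic and intronic abundance of each gene in labeled and in total RNA), 2 held a library set apart from the other 5 by more than Dixon's 95% critical value, where chance gives about 1 in 20. Both were total RNA of replicate 2 at 15 min. There the exonic abundance of Dgcr8, summed over transcripts, was 382, and the next lowest total RNA library was at 442. The intronic abundance of Dicer1 was 6.95 there, and the next lowest was at 9.12. The gap was 0.629 of the range in each.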

How the results depend on the processing

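The values do not keep the depth of each library, so its effect on single values was not computed. With the replicate block 1270 genes and 4470 transcripts passed in exons. Without the labeled libraries of replicate 2 at 15 and 60 min, an alternative chosen after seeing the data, 4 members and 3238 genes passed in exons, 9 members among 12699 transcripts, 7 members and 13186 genes in introns, and 8 members and 8456 genes in the ratio. Without a filter on low values 1 member and 4659 genes passed in introns, out of more genes tested. In the ratio 3 members passed, for which no count of all genes is given here. Centring on library medians left 0 members and 1818 genes in introns, and 1 member and 1026 genes in the ratio. It turned the intronic log2 difference of Drosha to -0.27, Dgcr8 to -0.18, Dicer1 to -0.20, Lin28a to -0.039, Lin28b to -0.67 and Trim71 to -0.53, and the ratio of Dgcr8 to -0.31 and Lin28b to -0.14. Between 60 and 15 min no filter gave 6 genes in labeled RNA, 8 in total RNA and 8 in the change of their difference, no trend gave 2, 4 and 5, a pseudocount of 20 gave 4 in total RNA and 4 in the change, and centring gave 3 in total RNA, none of them members.

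Leaving out 1 library or a whole replicate, exonic calls of genes ranged from 0 to 5 members and from 0 to 2931 genes. The counts fell by over 1.5 times without labeled replicate 1 (1466) or 2 (1436) at 30 min, total replicate 1 at 15 min (1445) and total replicate 2 at 30 min (1454). Leaving out a whole replicate, the only such setting run for these, transcripts ranged from 0 to 7 with 0 members, introns ranged from 1 to 3 members and 1833 to 7036 genes, and the ratio from 1 to 6 members and 435 to 4375 genes. From 15 to 60 min and without 1 library, genes ranged from 0 to 8 in labeled RNA, 0 to 7 in total RNA and 0 to 11 in the change, with 0 members. The exonic difference of Dgcr8 ranged from -0.0015 to 0.21 and the intronic ones of Lin28b from -0.50 to 0.57 and of Trim71 from -0.47 to 0.81, each below 0 without replicate 1. The other members kept their exonic direction in every setting run. Pairing replicate 1 with replicate 2 at 60 min in the block, added once the data had been seen, 4 members and 2716 genes passed in exons. The cause of these shifts was not tested. Synthesis stayed above the median for 7 members and processing for 6 in every setting run, and degradation below it for 5 to 7.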
